A study of Mus musculus with 9 samples.

Results

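NKR-P1 receptors and their Clr ligands were followed through 4 genes: the receptor genes Klrb1b and Klrb1f, and the ligand genes Clec2d and Clec2i. They were taken by name, with earlier results of these data known. They are 4 of 18193 genes, and 10 of the 34945 probe sets that carry 1 gene symbol: 5 for Klrb1b, 2 for Klrb1f, 1 for Clec2d and 2 for Clec2i. All 4 genes passed a filter on low mean signal and were among the 10916 genes tested.

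NKR-P1 receptors are C-type lectin-like proteins on natural killer cells. NKR-P1B, the product of Klrb1b, is inhibitory: its cytoplasmic tail carries an inhibitory motif that recruits the phosphatase SHP-1. It binds Clr-b, the product of Clec2d, which most haematopoietic cells display and which restrains killing by cells that carry the receptor. NKR-P1F, the product of Klrb1f, binds other Clr proteins, among them Clr-g, the product of Clec2i. The receptor and ligand genes lie interleaved in the natural killer gene complex on mouse chromosome 6, so that a receptor and its ligand tend to be inherited together.

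The levels came from Affymetrix arrays of 3 cell types freshly sorted from naive BALB/c mice of 6 to 8 weeks. Interferon-producing killer dendritic cells (IKDC) were named for sharing features of natural killer and dendritic cells. Natural killer cells (NK) are cytotoxic lymphocytes, and CDC, here taken as conventional dendritic cells, present antigen. Each cell type had 1 array from lymph node and 2 from spleen, 9 arrays in all, and the labels name no treatment, transgene or deletion in any group. The sort gates, and whether animals were pooled, are not given in the sources used here. A level is a log2 intensity after normalization, and a difference of levels is given with the standard error that limma estimated for it. A gene was called where its Benjamini-Hochberg adjusted p, over all 10916 genes, was below 0.05.

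The start regions of 3 of the genes are shown because the results below turn on these genes and because both receptor genes carry the same stretch of bases. Each runs 5′ to 3′ on the gene's own strand, from 250 bases before to 50 bases after the RefSeq start on GRCm38.p6, the C57BL/6J reference and not the BALB/c genome of these mice. The windows are chr6:128826266-128826565 on the minus strand for Klrb1b, chr6:129045651-129045950 on the plus strand for Klrb1f and chr6:129180365-129180664 on the plus strand for Clec2d. Capitals mark the stretch shared by the receptor genes.
Klrb1b: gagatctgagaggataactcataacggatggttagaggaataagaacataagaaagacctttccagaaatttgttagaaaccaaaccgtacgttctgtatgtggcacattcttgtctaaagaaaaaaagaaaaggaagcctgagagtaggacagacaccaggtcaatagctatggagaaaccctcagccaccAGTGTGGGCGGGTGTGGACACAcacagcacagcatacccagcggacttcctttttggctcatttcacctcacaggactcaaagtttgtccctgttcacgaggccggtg
Klrb1f: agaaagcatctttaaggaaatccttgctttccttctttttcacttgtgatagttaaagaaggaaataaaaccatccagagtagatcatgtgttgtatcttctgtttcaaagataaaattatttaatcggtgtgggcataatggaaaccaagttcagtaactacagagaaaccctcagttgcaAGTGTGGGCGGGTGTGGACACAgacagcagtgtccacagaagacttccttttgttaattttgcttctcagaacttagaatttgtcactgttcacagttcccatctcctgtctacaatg
Clec2d: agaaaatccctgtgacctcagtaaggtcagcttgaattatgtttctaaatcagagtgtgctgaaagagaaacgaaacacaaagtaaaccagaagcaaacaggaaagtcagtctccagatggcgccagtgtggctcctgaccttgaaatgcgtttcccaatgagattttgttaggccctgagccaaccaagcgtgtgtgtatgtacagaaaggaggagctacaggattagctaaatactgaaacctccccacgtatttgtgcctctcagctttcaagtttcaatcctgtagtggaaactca

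The 22-base stretch AGTGTGGGCGGGTGTGGACACA occupied bases 193 to 214 of the Klrb1b window and bases 183 to 204 of the Klrb1f window. Of 32851 RefSeq start windows of 300 bases, 3 held it, and all 3 belonged to these 2 genes. It contains CCACACCC on its opposite strand, an 8-letter word that 3.6% of the windows held on either strand. In a global alignment the Klrb1b and Klrb1f windows shared 57.3% of their 300 bases, against 46.7% for Klrb1b and Clec2d, and 45.3% for Klrb1f and Clec2d. The window of the related gene Klrb1 shared more with each, 61.0% with Klrb1b and 58.7% with Klrb1f, but did not hold the 22-base stretch. The 6 letters TGTGGT, searched on both strands, were in 16.8% of all windows and in none of those of Klrb1b, Klrb1f, Clec2d and Clec2i. Among the related receptor genes, the windows of Klrb1a and Klrb1c held 1 occurrence each, and that of Klrb1 held none. These matches describe the letters in the windows and nothing about binding.

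The cell labels were first set against marker genes. The mean level of 11 NK markers ranged from 10.77 to 11.16 on the IKDC arrays and from 11.22 to 11.50 on the NK arrays, against 6.10 to 6.99 on the CDC arrays. The mean of 8 CDC markers ranged from 6.53 to 6.76 in IKDC and from 5.31 to 6.24 in NK, against 10.18 to 10.49 in CDC. Itgax was the 1 marker of the 8 not called lower in spleen IKDC or NK than in CDC. Its levels were 10.89 to 11.24 in IKDC and 11.40 to 12.37 in CDC. In NK they were 11.32 and 7.27 on spleen arrays 1 and 2, and 8.19 in lymph node. Flt3 was 8.69 in lymph node IKDC, against 6.13 and 5.75 in spleen IKDC and 10.85 to 11.25 in CDC. The macrophage list, 5 markers, averaged 7.79 to 9.40 in IKDC and 6.53 to 9.44 in NK, against 10.34 to 11.09 in CDC. Markers of further cell types were high on single lymph node arrays. The 5 plasmacytoid dendritic cell markers averaged 10.83 on the lymph node IKDC array, against 6.24 and 7.03 on the spleen IKDC arrays. The 5 T cell markers averaged 8.08 on the lymph node NK array, against 5.84 and 6.19 on the spleen NK arrays. Spleen arrays 1 and 2 also stood apart: the X-inactivation transcript Xist was 6.02 to 6.36 on the first and 11.43 to 12.49 on the second, and the Y-linked Eif2s3y was 8.84 to 9.40 on the first and at most 4.28 on the second. Xist was 12.05 to 12.19 in lymph node, where Eif2s3y lay below 4.28 too. The proliferation gene Mki67 was 10.97 to 11.91 on the first spleen arrays, 8.71 to 9.35 on the second and 8.63 to 9.86 in lymph node. A list of 4 erythroid and platelet markers averaged 6.88 on spleen NK array 2, against 4.39 to 5.61 on the other 8 arrays, with the platelet gene Pf4 at 9.60 there. The lymph node arrays thus match spleen arrays 2 in Xist and Eif2s3y. A difference of lymph node from the spleen mean therefore sets arrays of a single such pattern against a mix of both patterns. For this reason differences from each spleen array are given below. The median deposited intensity ranged from 23.4 to 41.3 units.

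Over the 4 genes, Klrb1f was higher in IKDC and NK than in CDC in both organs, Klrb1b was higher in NK than in CDC in spleen, and neither ligand gene was called. In spleen IKDC against CDC, 1 of 4 was called higher (Klrb1f), where 10.3% of all genes tested were called and 4.75% as higher. The median difference of the 4 was 1.00, against 0.04 over all genes tested. In spleen NK against CDC, 2 of 4 were called higher (Klrb1b and Klrb1f), where 13.5% of all genes were called and 6.54% as higher. The medians were 1.42 for the 4 genes and 0.06 for all. In lymph node 1 of 4 (Klrb1f) was called higher in IKDC than in CDC, where 3.98% of all genes were called and 2.09% as higher. Likewise 1 of 4 (Klrb1f) was called higher in lymph node NK than in CDC, where 6.16% were called and 2.93% as higher. With the replicate number as a block, the count in spleen IKDC against CDC was 2 of 4 (Klrb1b added), where 17.2% of all genes were called. The labels give the lymph node arrays no number, so they were kept outside the block, which alters the estimated spread of a lymph node difference and leaves its size as it was.

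None of the 4 was called between organs within a cell type, where limma called 0% of genes in IKDC, 0% in NK and 0.0275% in CDC. Those organ comparisons had 744, 628 and 1387 genes at an unadjusted p below 0.05, in that order of cell types. In bulk RNA of sorted cells, fewer cells that carry a transcript and less of it per cell cannot be told apart.

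Klrb1f was higher in IKDC and in NK than in CDC, in spleen and in lymph node. Its probe set 1457722_at had levels of 11.34 and 10.36 in spleen IKDC and 11.13 and 10.93 in spleen NK, against 8.45 and 8.71 in spleen CDC. In lymph node it stood at 11.71 in IKDC and 11.05 in NK, against 8.00 in CDC. Every IKDC and NK array lay above every CDC array, and the lowest of them was the second spleen IKDC array. In deposited units these were intensities of 1318 to 2846 in IKDC and 1929 to 2456 in NK, against 243 to 413 in CDC.

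In spleen IKDC, Klrb1f averaged 10.85 ± 0.69, against 8.58 ± 0.18 in spleen CDC (SD, n = 2 each), a difference of 2.27 ± 0.35 (SE), or 4.82-fold (adjusted p = 0.0107). It averaged 11.03 ± 0.15 in NK (SD, n = 2), 2.45 ± 0.35 above the same CDC arrays, or 5.46-fold (adjusted p = 0.00641). In lymph node the IKDC array lay 3.72 ± 0.50 above the CDC array, or 13.2-fold (adjusted p = 0.0198). The NK array lay 3.06 ± 0.50 above it, or 8.32-fold (adjusted p = 0.0212). The spread of each lone lymph node array was taken from the spleen pairs, and the IKDC and NK comparisons share their CDC arrays. In spleen, the IKDC call was lost without CDC array 1 (adjusted p = 0.0852) or CDC array 2 (0.0782), and the NK call without CDC array 1 (0.0544), CDC array 2 (0.0535) or NK array 1 (0.0560). Leaving out a spleen array also moved the lymph node differences slightly, to 3.68 to 3.77 for IKDC and 3.03 to 3.09 for NK. In lymph node the IKDC call was lost without CDC array 1 (0.0565), CDC array 2 (0.0597) or NK array 2 (0.0557). The lymph node NK call was lost without CDC array 1 (0.0604), CDC array 2 (0.0633), NK array 1 (0.0529) or NK array 2 (0.0584).

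The other Klrb1f probe set, 1425962_at, also separated IKDC and NK from CDC. Its levels were 7.63 and 8.37 in spleen IKDC, 8.01 and 7.80 in spleen NK, and 3.77 and 5.43 in spleen CDC. In lymph node they were 7.97 in IKDC and 8.01 in NK, against 3.79 in CDC. Both spleen differences from CDC passed the test when every probe set was tested, at 3.41 for IKDC (adjusted p = 0.0181) and 3.31 for NK (adjusted p = 0.0157). In lymph node the NK difference of 4.21 passed (adjusted p = 0.0430), and the IKDC difference of 4.18 did not (adjusted p = 0.0587). The IKDC arrays kept no common order between these probe sets, since the second spleen array was the lowest of the 3 with 1457722_at and the highest with 1425962_at. The lymph node IKDC array, highest of the 9 with 1457722_at, is the one with raised plasmacytoid markers, whose part in the Klrb1f level was not tested.

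**Figure D1:**
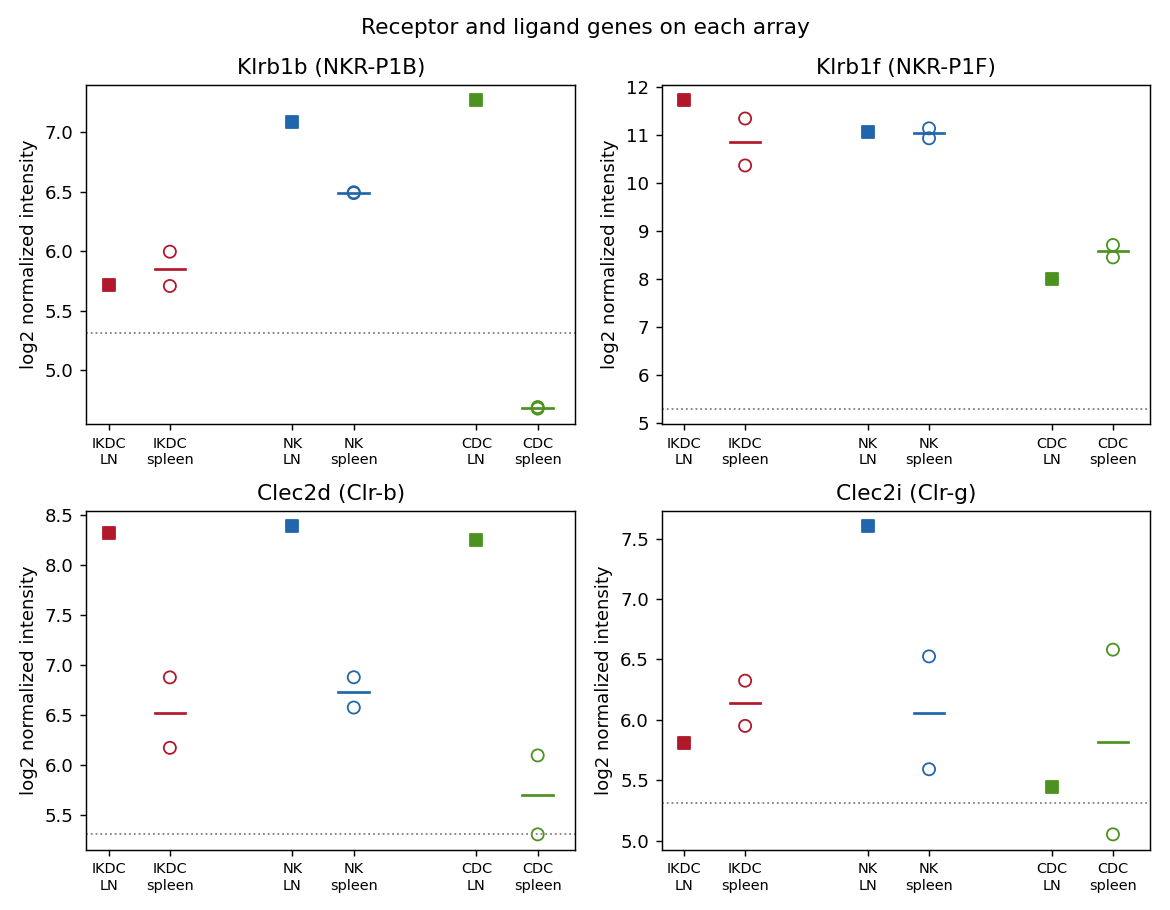
Log2 normalized intensity of the 4 genes on each array, with 1 panel per gene and its own scale. Filled squares are the lymph node arrays (n = 1), open circles the spleen arrays (n = 2) with a bar at their mean, and the dotted line is the filter level of 5.31. Klrb1f is high in IKDC and NK, Clec2d is higher on all 3 lymph node arrays than on any spleen array, and Klrb1b is high in lymph node CDC and low in spleen CDC.

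Klrb1b, the inhibitory receptor gene, was higher in NK than in CDC in spleen, whereas in lymph node the CDC array was the highest. Its probe set 1420421_s_at had levels of 6.00 and 5.71 in spleen IKDC and 6.49 and 6.50 in spleen NK, against 4.68 and 4.69 in spleen CDC. In lymph node it stood at 5.72 in IKDC and 7.09 in NK, against 7.27 in CDC. The CDC thus gave both the highest array of the 9, from lymph node, and the 2 lowest, from spleen. In deposited intensity the lymph node CDC array was at 152, against 17.6 and 20.1 for the spleen CDC arrays, and the NK arrays lay between 75.3 and 136.

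In spleen NK, Klrb1b averaged 6.49 ± 0.0051, against 4.68 ± 0.0094 in spleen CDC (SD, n = 2 each), a difference of 1.81 ± 0.31 (SE, adjusted p = 0.0123). Since spleen CDC were below the filter level, the fold against that level was at least 2.27. Spleen IKDC averaged 5.85 ± 0.20 (SD, n = 2), 1.17 ± 0.31 above spleen CDC. That difference did not pass the test (adjusted p = 0.0667), and did pass with the replicate block (adjusted p = 0.0483), at least 1.46-fold. The NK call was lost without CDC array 1 (adjusted p = 0.0755), CDC array 2 (0.0914), NK array 1 (0.0771) or NK array 2 (0.0829). It was also lost in an additive model over both organs, where the difference was 1.15 (adjusted p = 0.146) and 22% of all genes were called. With the mean of all probe sets of a gene, Klrb1b was not called in spleen NK against CDC, and 1 of the 4 genes was.

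In lymph node the Klrb1b differences from CDC had the opposite sign, at -1.55 ± 0.44 for IKDC (adjusted p = 0.133) and -0.18 ± 0.44 for NK (adjusted p = 0.875). Neither passed the test. The organ interaction, the lymph node difference minus the spleen difference, was -2.72 ± 0.54 for IKDC against CDC (adjusted p = 0.405) and -1.99 ± 0.54 for NK against CDC (adjusted p = 0.768). No gene was called in either interaction by limma, and 615 and 583 genes had an unadjusted p below 0.05. The NK markers averaged 6.84 on the lymph node CDC array and 6.99 and 6.10 on the spleen CDC arrays, and the NK receptor gene Ncr1 stood at 6.22 there, against 5.94 and 5.06. The plasmacytoid markers averaged 8.64 on that array, against 7.67 and 7.30. The part of these in the Klrb1b level was not tested.

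The other 4 Klrb1b probe sets had mean levels below the filter and were not tested as the gene. For 1422067_at the levels were 5.05 and 5.28 in spleen IKDC and 5.74 and 5.76 in spleen NK, against 4.12 and 4.97 in spleen CDC. Its lymph node levels were 4.74 in IKDC and 6.18 in NK, against 5.14 in CDC. For 1445399_at the levels lay between 4.15 and 5.62, with the lymph node CDC array above both spleen CDC arrays (4.41 and 4.32) and below the lymph node NK array (5.30). The other two, 1422065_at and 1422066_x_at, lay between 2.73 and 3.96 on all arrays. None of the 4 thus carried the height of 1420421_s_at in lymph node CDC. The suffix of that set is the maker's mark for probes shared by several transcripts, and the NKR-P1 genes are close relatives, so what it measures of Klrb1b alone is uncertain.

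**Figure D2:**
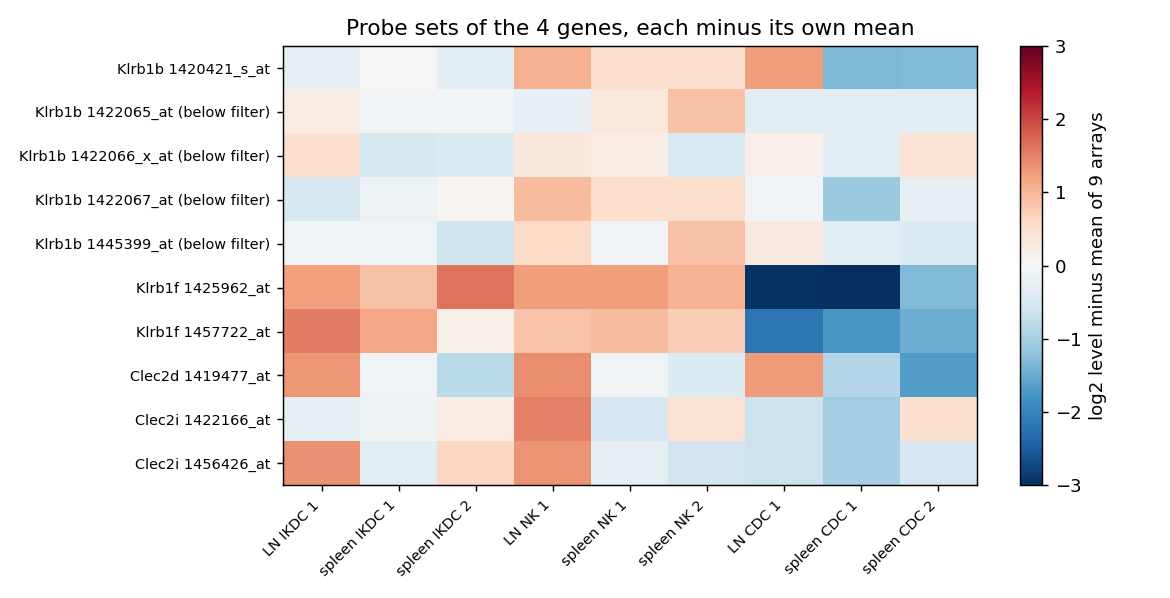
Level of each of the 10 probe sets on each array minus that probe set's mean over the 9 arrays (colour, log2), with IKDC, NK and CDC arrays in that order and lymph node first within each. Both Klrb1f sets separate CDC from the rest, whereas only 1 of the 5 Klrb1b sets is high in lymph node CDC.

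Clec2d, which encodes the ligand of NKR-P1B, was higher on all 3 lymph node arrays than on any spleen array. Its only probe set, 1419477_at, stood at 8.31 in IKDC, 8.38 in NK and 8.25 in CDC from lymph node. In spleen the levels were 6.87 and 6.17 in IKDC, 6.87 and 6.57 in NK, and 6.09 and 5.30 in CDC. The gap between the lowest lymph node level and the highest spleen level exceeded the gap within every spleen pair. In deposited intensity the lymph node arrays ranged from 288 to 336 and the spleen arrays from 33.9 to 111.

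Within each cell type the Clec2d difference between lymph node and spleen did not pass the test, with 1 array against 2. It was 1.79 ± 0.49 in IKDC (adjusted p = 0.438), 1.66 ± 0.49 in NK (adjusted p = 0.770) and 2.55 ± 0.49 in CDC (adjusted p = 0.143). Against the second spleen arrays alone, which match the lymph node arrays in Xist, it was 2.14 in IKDC, 1.81 in NK and 2.94 in CDC. Against the first spleen arrays it was 1.44, 1.51 and 2.16 in the same order of cell types. Averaged over the 3 cell types, a comparison added after the data were seen, the difference was 2.00 ± 0.28. Its adjusted p of 0.0569 missed the threshold, and over all alternatives run it lay between 0.0202 and 0.191. With values as deposited the averaged difference was 2.08 and passed the test (adjusted p = 0.0476). The median deposited intensity was 33.9 to 41.3 on the lymph node arrays, against 23.4 to 34.1 on the spleen arrays. Those medians are from before quantile normalization, with which the averaged difference was 2.00, against 2.08 without it. Any further part of array intensity in the Clec2d level was not tested. The averaged difference also passed in an additive model of cell type and organ (0.0202, where 0.806% of all genes were called) and without spleen IKDC array 1 (0.0276) or 2 (0.0456), with an offset of 32 (0.0400) and with the mean of probe sets (0.0437). In that averaged comparison 0.376% of all genes tested were called, 0.101% as higher in lymph node.

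Between cell types, no Clec2d difference passed the test. In spleen it averaged 6.52 ± 0.50 in IKDC and 6.72 ± 0.21 in NK, against 5.70 ± 0.56 in CDC (SD, n = 2 each). The differences from CDC were 0.82 ± 0.40 for IKDC (adjusted p = 0.286) and 1.02 ± 0.40 for NK (adjusted p = 0.166). Leaving out 1 spleen array gave 0.43 to 1.22 for IKDC and 0.63 to 1.42 for NK. With the replicate number as a block the NK difference passed (adjusted p = 0.0379), where 21.2% of all genes were called. In lymph node the differences from CDC were 0.06 ± 0.56 for IKDC (adjusted p = 0.972) and 0.13 ± 0.56 for NK (adjusted p = 0.931).

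Clec2i, which encodes the Clr-g ligand, gave no difference that passed the test. Its probe set 1422166_at had levels of 5.95 and 6.32 in spleen IKDC and 5.59 and 6.52 in spleen NK, against 5.05 and 6.58 in spleen CDC. In lymph node it was 5.81 in IKDC and 7.60 in NK, against 5.44 in CDC. The spleen groups overlapped, the second array of each cell type was the higher one, and the lymph node NK array was the highest of the 9. That array lay 2.16 ± 0.83 above lymph node CDC (adjusted p = 0.220), which passed with the replicate block (adjusted p = 0.0462), where 12.1% of all genes were called. It lay 2.01 and 1.08 above the first and second spleen NK arrays. The T cell markers were also highest on that array, and their part in the Clec2i level was not tested. In the spleen the differences from CDC were 0.32 ± 0.59 for IKDC (adjusted p = 0.810) and 0.24 ± 0.59 for NK (adjusted p = 0.864).

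The second Clec2i probe set, 1456426_at, had levels of 6.72 in IKDC, 6.71 in NK and 4.72 in CDC from lymph node. In spleen it stood at 5.01 and 5.97 in IKDC, 5.08 and 4.78 in NK, and 4.36 and 4.86 in CDC. The lymph node IKDC array was thus high with this set and not with 1422166_at. With 1456426_at the lymph node differences from CDC were 2.00 for IKDC (adjusted p = 0.223) and 1.99 for NK (adjusted p = 0.189).

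Set against each other, IKDC and NK did not differ in any of the 4 genes by more than the test allowed. The spleen difference of IKDC from NK was -0.64 for Klrb1b (95% interval -1.39 to 0.11) and -0.18 for Klrb1f (-1.03 to 0.67). It was -0.20 for Clec2d (-1.16 to 0.76) and 0.08 for Clec2i (-1.34 to 1.497). Each interval reaches beyond 1 log2 unit in at least 1 direction. In lymph node the differences of IKDC from NK were -1.37 ± 0.44 for Klrb1b (adjusted p = 0.866), 0.66 ± 0.50 for Klrb1f, -0.07 ± 0.56 for Clec2d and -1.80 ± 0.83 for Clec2i (adjusted p = 1 for these 3). In spleen IKDC against NK, limma called 0% of all genes, with 598 at an unadjusted p below 0.05, and in lymph node 0.055%.

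**Figure D3:**
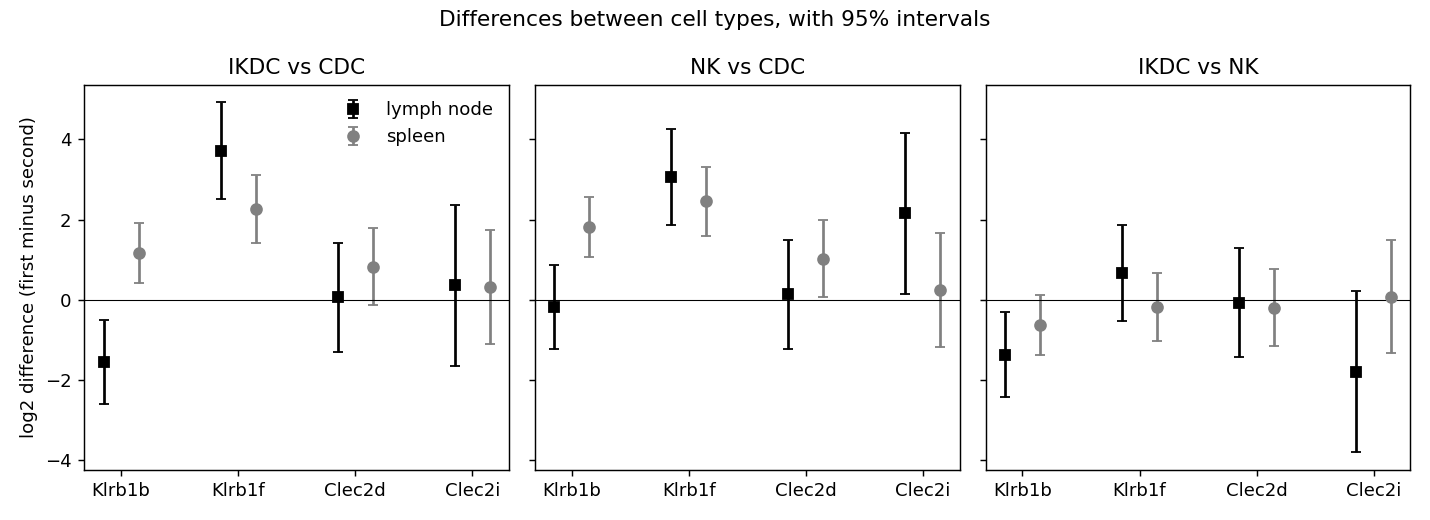
Log2 difference of each gene between cell types, as the first named minus the second, with 95% intervals from limma. Squares are lymph node (1 array per cell type), circles spleen (2 per cell type). Against CDC, Klrb1f lies above 0 in both organs, and Klrb1b lies above 0 in spleen and, in lymph node, at -1.55 for IKDC and near 0 for NK (-0.18, with an interval across 0).

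The levels ordered the 6 groups differently for each gene. For Klrb1f the order was lymph node IKDC (11.71), lymph node NK (11.05), spleen NK (11.03), spleen IKDC (10.85), spleen CDC (8.58) and lymph node CDC (8.00). The first 4 lay within 1 log2 unit and no step between neighbours among them passed the test, nor did the step between the last pair. The step of 0.66 between lymph node IKDC and lymph node NK was within the gap of the spleen IKDC pair, 0.98, and beyond those of the NK pair, 0.21, and the CDC pair, 0.26. For Klrb1b it was lymph node CDC (7.27), lymph node NK (7.09), spleen NK (6.49), spleen IKDC (5.85), lymph node IKDC (5.72) and spleen CDC (4.68). The step between spleen IKDC and lymph node IKDC was within the gap of the spleen IKDC pair, 0.29. The steps between lymph node NK and spleen NK, and between spleen IKDC and spleen NK, exceeded the gap of the NK pair but did not pass the test. For Clec2d the 3 lymph node groups, at 8.25 to 8.38, came before spleen NK (6.72), spleen IKDC (6.52) and spleen CDC (5.70). For Clec2i, lymph node NK (7.60) came first and the other 5 groups lay between 5.44 and 6.14, closer together than the spleen CDC arrays, which differed by 1.53. The other organ differences did not pass the test. For lymph node against spleen, Klrb1f differed by 0.87 ± 0.43 in IKDC (adjusted p = 0.776), by 0.02 ± 0.43 in NK (0.999) and by -0.58 ± 0.43 in CDC (0.633). Klrb1b differed by -0.14 ± 0.38 in IKDC (adjusted p = 0.975), by 0.59 ± 0.38 in NK (0.943) and by 2.59 ± 0.38 in CDC (0.0963). The Klrb1b difference in CDC was 2.59 against the first spleen array and 2.58 against the second, and at least 3.90-fold against the filter level.

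**Figure D4:**
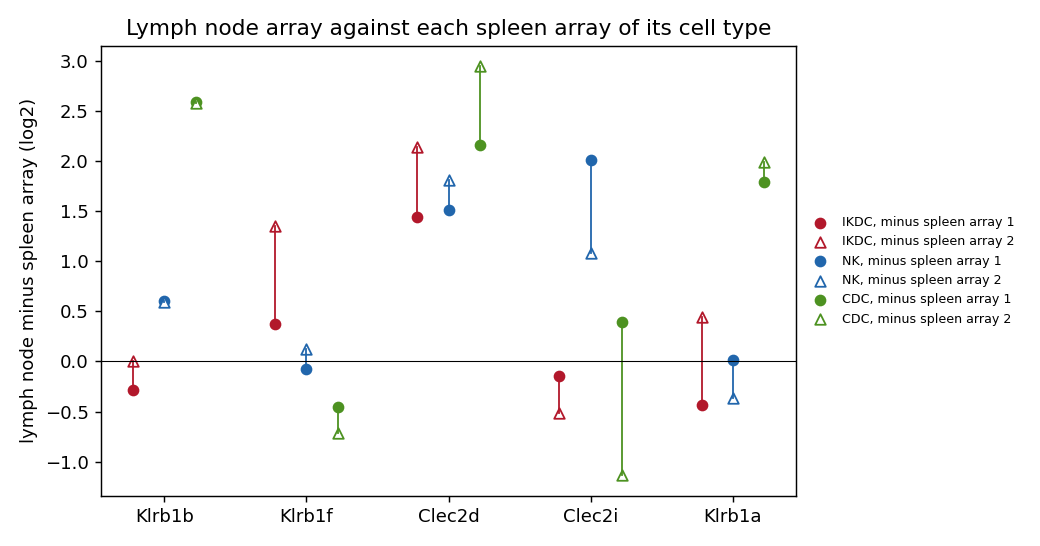
Lymph node array minus each spleen array of the same cell type (log2) for the 4 genes and the related receptor gene Klrb1a. Circles use spleen array 1 and triangles spleen array 2, and a line joins the pair. Clec2d lies between 1.44 and 2.94 in every pair, and in CDC both Klrb1b (2.58 and 2.59) and Klrb1a (1.79 and 1.99) lie above 0.

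Of 14 further NKR-P1 and Clr genes listed, 6 had a probe set of their own and 2 were tested, Klrb1a and Clec2h. Klrb1a encodes NKR-P1A, an activating receptor that signals through the Fc receptor gamma chain. Its levels were 9.55 and 8.67 in spleen IKDC and 10.07 and 10.46 in spleen NK, against 4.46 and 4.26 in spleen CDC. In lymph node they were 9.11 in IKDC and 10.09 in NK, against 6.25 in CDC. The spleen differences from CDC were 4.75 ± 0.36 for IKDC, at least 13.9-fold (adjusted p = 0.00136), and 5.90 ± 0.36 for NK, at least 31.0-fold (adjusted p = 0.000580). In lymph node they were 2.86 for IKDC (adjusted p = 0.0367) and 3.84 for NK (adjusted p = 0.0119). The lymph node IKDC call was lost without any 1 of the spleen CDC or NK arrays, with an adjusted p of up to 0.0994, and without a filter (0.0573). Like Klrb1b, Klrb1a was higher on the lymph node CDC array than on both spleen CDC arrays, by 1.79 and 1.99, which did not pass the test (adjusted p = 0.197).

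Clec2h, a Clr family gene, had levels between 4.93 and 6.21 and was called in no comparison. The probe sets of Clec2e, Clec2g, Clec2l and Clec2m lay below the filter.

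Of 14 genes listed for signalling by these receptors, 13 were tested. Between spleen IKDC and CDC, 2 were higher, 2 lower and 9 not called, where 10.3% of all genes tested were called. Those higher were Cd247, which encodes the zeta signalling chain (4.62, adjusted p = 0.00213), and Zap70, a kinase that binds such chains (4.49, adjusted p = 0.00653). Spleen CDC averaged 4.75 ± 0.79 for Cd247 and 5.10 ± 1.37 for Zap70 (SD, n = 2), both below the filter level. Against that level the IKDC folds were at least 16.7 for Cd247 and 19.5 for Zap70. Those lower were Ptpn6, which encodes the phosphatase SHP-1 (-1.49, adjusted p = 0.0211), and Plcg1, a phospholipase (-1.57, adjusted p = 0.0416). In spleen NK against CDC, 4 were higher, 2 lower and 7 not called, where 13.5% of all genes were called. Cd247 (5.25, adjusted p = 0.00101) and Zap70 (4.61, adjusted p = 0.00471) were again higher, with the adaptor gene Hcst (2.14, adjusted p = 0.0107) and Fcer1g, the Fc receptor gamma chain (1.16, adjusted p = 0.0270). Against the filter level the NK folds were at least 25.9 for Cd247 and 21.2 for Zap70. Ptpn6 (-1.90, adjusted p = 0.00687) and Plcg1 (-1.59, adjusted p = 0.0326) were lower. In lymph node neither was called, and Ptpn6 differed from CDC by 0.75 in IKDC and by 0.08 in NK. Plcg1 differed there by -1.47 in IKDC and by -0.07 in NK. No organ interaction was called for either gene.

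Among the signalling genes not called in either spleen comparison, the adaptor gene Tyrobp differed by 0.55 (adjusted p = 0.167) and the kinase gene Syk by -0.03 (adjusted p = 0.975) between spleen IKDC and CDC. In lymph node, 1 of 13 was called in IKDC against CDC (Cd247, 3.62, adjusted p = 0.0331) and 3 in NK against CDC (Cd247, Hcst and Zap70), all higher, where 3.98% and 6.16% of all genes were called in the same order. Lymph node CDC lay below the filter level for Cd247, so its folds there were at least 11.4 for IKDC and 14.7 for NK. None of the 13 was called between IKDC and NK. The median over the 13 genes was 0.04 in spleen IKDC against CDC, the same as over all genes tested. In spleen, the Cd247 and Zap70 calls held under every alternative run. The Ptpn6 call was lost with the mean of its probe sets for IKDC (-1.19, adjusted p = 0.0629) and in an additive model for IKDC (0.294) and NK (0.0742). It was also lost without spleen CDC array 2 in both, and without CDC array 1 for IKDC and NK array 2 for NK, with adjusted p up to 0.173. When all Plcg1 probe sets were averaged its difference was -0.76 for IKDC (adjusted p = 0.213) and -0.33 for NK (0.586), and neither passed. Its call was also lost without a filter for IKDC (0.0694) and NK (0.0555), as deposited for IKDC (0.0519) and in the additive model for NK (-1.08, 0.0703). Among single arrays, it was lost for IKDC without any 1 of the CDC or IKDC arrays (up to 0.229) and for NK without CDC array 1, CDC array 2 or NK array 1 (up to 0.187). Fcer1g was not called without any 1 of the CDC or NK arrays, up to 0.201, and Hcst without CDC array 2 or either NK array, up to 0.0996. When spleen arrays were left out of the shared fit, the lymph node call of Cd247 was lost without spleen CDC array 2 or either spleen NK array for IKDC (up to 0.0865) and without spleen NK array 2 for NK (0.0531). With the mean of its probe sets that Cd247 difference was 1.60 for IKDC (adjusted p = 0.177) and 1.96 for NK (0.0857), and neither passed. The IKDC call was also lost with the percentile shift (0.0506) and without a filter (0.0536). The lymph node call of Zap70 was lost without either spleen NK array (up to 0.0715) and that of Hcst without any 1 of the spleen CDC or NK arrays (up to 0.103), without a filter (0.0616) or without a trend (0.0520). With the replicate block, Hcst was also called higher in IKDC than in CDC in spleen (adjusted p = 0.0198) and lymph node (0.0188), and Zap70 in lymph node (0.0103). Inpp5d, which encodes the phosphatase SHIP-1, was then lower in spleen IKDC (0.0294) and spleen NK (0.0271) than in CDC, as was Plcg2 in spleen IKDC (0.0471) and lymph node NK (0.0200), and Lcp2 was higher in lymph node NK (0.0329). In the additive model limma also called Tyrobp higher in IKDC (adjusted p = 0.0243) and NK (0.0431) than in CDC. Hcst was higher in IKDC (0.00520) in that model, and Inpp5d was lower in IKDC (0.00667) and NK (0.00484). That model called 22% of all genes in NK against CDC.

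In the RefSeq gene order of the assembly GRCm38.p6, the region from Klrb1a to Clec2m holds 31 genes, 14 of them protein-coding. The protein-coding genes run Klrb1a, Clec2h, Klrb1, Klrb1c, Klrb1b, BC035044, Clec2i, Clec2g, Clec2f, Klrb1f, Clec2e, Clec2d, Cd69 and Clec2m. Klrb1f thus lies between 2 Clr genes, and Clec2d is separated from Cd69, a lymphocyte activation gene, by non-coding genes. Of the 31 genes, 13 had a probe set of their own and 10 were tested. Between spleen IKDC and CDC, 3 were higher (Klrb1a, Klrb1f and Cd69) and 1 lower (BC035044), where 10.3% of all genes tested were called. In spleen NK against CDC, 4 were higher, with Klrb1b added, and BC035044 was lower, where 13.5% of all genes were called. Cd69 differed by 3.35 ± 0.51 in IKDC (adjusted p = 0.00961) and by 3.63 in NK (adjusted p = 0.00568). BC035044 differed by -1.90 ± 0.36 in IKDC (adjusted p = 0.0224) and by -2.50 in NK (adjusted p = 0.00661).

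In lymph node IKDC against CDC, Klrb1a and Klrb1f were the 2 called of the 10, where 3.98% of all genes were called. In lymph node NK against CDC, Klrb1a, Klrb1f and Cd69 were higher and BC035044 was lower, where 6.16% were called. With the replicate block Cd69 was also called higher in lymph node IKDC than in CDC (adjusted p = 0.00539). None of the 10 was called between IKDC and NK or between organs within a cell type. Klrb1b and BC035044, called in opposite directions in spleen NK against CDC, are separated by 1 non-coding gene in this order. In spleen IKDC against CDC the calls of BC035044 (adjusted p up to 0.173) and Cd69 (0.0519) were lost without CDC array 2, and that of BC035044 also without CDC array 1. In spleen NK against CDC the call of BC035044 was lost without CDC array 2 (0.0731). In lymph node NK against CDC the call of Cd69 was lost without either spleen NK array and that of BC035044 without either spleen CDC array, up to 0.0755, and that of Cd69 also without a filter (0.0509).

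Among the 10916 genes, those with profiles most like each of the 4 were found by the root mean square difference of levels centred on each gene's mean, over the 9 arrays. For Klrb1f the nearest were Klra5, a Ly49 family gene, at 0.31 log2 units, then Adcy3, an adenylyl cyclase gene, at 0.36, Zcchc18 at 0.38, Padi2 at 0.39 and Kcnq5 at 0.40. For Klrb1b they were Il15ra, which encodes the alpha chain of the interleukin 15 receptor, at 0.37, Mfge8 at 0.39, Slc52a3 at 0.44, Nol4l at 0.45 and Psen2 at 0.45. For Clec2d they were Asb13 at 0.34, Pan3 at 0.37, AI504432 at 0.40, D130051D11Rik at 0.41 and Gm20559 at 0.41. For Clec2i they were Zer1 at 0.34, Crot at 0.36, Ap5m1 at 0.40, the transcription factor gene Stat3 at 0.42 and She at 0.43. The whole ranges of the 4 genes over the arrays were 3.72 for Klrb1f, 2.59 for Klrb1b, 3.08 for Clec2d and 2.55 for Clec2i. The 5 nearest genes had ranges of 2.71 to 3.80 for Klrb1f, 2.05 to 2.98 for Klrb1b and 2.42 to 3.35 for Clec2d. Those of Clec2i had ranges of 1.08 to 1.99, all below that of Clec2i itself, and so are flatter genes. None of the 20 nearest genes was 1 of the 4. With only 5 of 10916 genes taken for each member, that cannot show whether receptor and ligand levels vary together.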

How the data were processed

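RNA of sorted IKDC, NK and CDC was measured on 9 Affymetrix arrays. Per the labels, total RNA was extracted with TRIzol and RNeasy, and 6 µg of it went into biotin-labelled cRNA. The values deposited by the authors are linear intensity values for 45101 probe sets. They had been scaled by array, since the trimmed mean (from percentile 2 to percentile 98) was 150.0008 to 150.001 on every array. Which software did so is not stated, and the table has no detection calls.

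From the deposited intensity values, log2 levels were computed after adding 6.49 units (percentile 20 of the whole table), followed by quantile normalization. Without the 64 controls, 34945 probe sets had 1 symbol, 932 several and 9160 none. Symbols were updated through RefSeq, where 34742 probe sets matched and 1 symbol changed. The probe set with the highest mean stood for each of 18193 genes, and 10916 genes at or above percentile 40 of these means, a level of 5.31, entered the tests. Where the lower group lay below 5.31, a fold is given against that level as "at least".

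Tests used limma 3.58.1 in R 4.3.3 (lmFit, eBayes with a trend) over 6 groups, with 3 residual and 3.44 prior degrees of freedom. The size of the differences it returned was checked for spleen NK against CDC alone, on simulated arrays with independent noise. A difference of group means returns an added shift by construction, so the check covers the coding only. That check cannot speak to p-values where arrays of the same number deviate alike. Two-sided p-values were adjusted by Benjamini and Hochberg within each comparison. They reflect the spread among these samples alone, and the number of arrays limits the precision. That spread comes from the spleen pairs, whose arrays differ in Xist, Eif2s3y and Mki67, so it is not technical alone. How much of it is technical was not tested. Arrays of the same number deviated alike from their group means (r across genes 0.529 for IKDC and CDC, 0.412 for NK and CDC, 0.485 for IKDC and NK), and shared their Xist and Eif2s3y levels, and the labels do not say what the number marks. Fits with that number as a block are given where they change a call.

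The members and gene lists were chosen with earlier results of these data known. The text names the members, related and signalling genes by list, called genes of the region, and the 5 genes nearest each member. Clec2l, which RefSeq places far away, was left out of the region once the annotation was seen. Alternatives were the deposited values without quantile normalization, a shift to a common percentile 75, offsets of 2 and 32, no filter, no trend, the mean of all probe sets, each probe set alone, an additive model, the block, and leaving out each spleen array. Start windows were matched with Biopython 1.88 in Python 3.11.15.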

Additional observations from a re-analysis of the deposited data

Results flagged for a closer look

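Klrb1b had differences of opposite sign in the 2 organs. For IKDC minus CDC it was -1.55 in lymph node and 1.17 in spleen (log2). Such cases were picked by a rule: all spleen pairs of arrays had the same sign, and the 1 lymph node pair had the other. The test of the difference between organs did not pass (limma, adjusted p = 0.405 for an interaction of -2.72). For NK minus CDC it was -0.182 in lymph node and 1.81 in spleen, with an interaction of -1.99 (adjusted p = 0.768). Both rest on the 1 lymph node CDC array and on 1 of 5 Klrb1b probe sets.

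Klrb1f differed between lymph node and spleen in opposite directions in 2 cell types: by 0.865 in IKDC and by -0.582 in CDC, relative to the mean of the spleen arrays. Leaving out 1 spleen array gave 0.39 to 1.35 in IKDC, and the second probe set gave -0.029 in IKDC and -0.80 in CDC, so that the opposite direction is not shared by both sets. The interaction was 1.45 ± 0.61 (limma, adjusted p = 0.884). Clec2i differed by 1.54 in NK and by -0.331 in IKDC, with an interaction of IKDC against NK of -1.88 ± 1.02 (adjusted p = 0.9999). The second Clec2i probe set gave 1.23 in IKDC and 1.78 in NK, the same direction.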

How the results depend on the processing

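The 4 genes gave 52 values over 13 comparisons. Under the alternatives, 668 recomputed values kept their direction and side of the threshold, 18 lost a call, 10 gained one and 33 changed sign. The Klrb1b call lost with the mean of probe sets in spleen NK against CDC gave no recomputed value and is not among the 18. The cause of each change was not tested, except that fewer arrays or fewer genes were used where stated. The number of the 4 genes called became 2 in spleen IKDC against CDC without a trend and with the replicate block, 1 in spleen NK against CDC with the mean of all probe sets and in the additive model, and 2 in lymph node NK against CDC with the block. In spleen NK against CDC the gene lost was Klrb1b in both settings. Averaged over cell types, 1 was called between lymph node and spleen with values as deposited, an offset of 32, the mean of probe sets and the additive model. No count of all genes called is given here for the fit without a trend in spleen IKDC against CDC. Nor is it given for the mean of probe sets in spleen NK against CDC or averaged over cell types. The member counts in those settings thus have no share of all genes beside them. With the block, Clec2d joined Klrb1b and Klrb1f among the genes called higher in spleen NK than in CDC (limma, adjusted p = 0.0379). The block changed no other call of these genes. The genes called with the replicate block were 1883 in spleen IKDC against CDC, 2318 in spleen NK against CDC, 1041 in lymph node IKDC against CDC, 1324 in lymph node NK against CDC and 45 in lymph node IKDC against NK. The main counts were 1129, 1475, 434, 672 and 6. The additive model called 1897 in spleen IKDC against CDC, 2404 in spleen NK against CDC and 88 between organs averaged over cell types, against 41. Lymph node IKDC against CDC gave 260 without a filter. Lymph node IKDC against NK gave 0 with values as deposited, the percentile shift, an offset of 2 or no filter, and 18 with an offset of 32. Lymph node against spleen CDC gave 5 with the percentile shift, 12 with an offset of 2, 1 with an offset of 32, 0 without a filter or without a trend and 8 with the mean of probe sets, against 3. In NK it gave 1 with an offset of 32 or no filter, and in IKDC 46 with an offset of 32 and 18 with the mean of probe sets, against 0 in both. Averaged over cell types it gave 66 as deposited, 97 with an offset of 32, 13 without a filter and 14 without a trend. Leaving out each spleen array gave 329 to 1422 genes in spleen IKDC against CDC, 479 to 1957 in spleen NK against CDC, 121 to 789 and 299 to 1133 for the same pairs in lymph node, and 0 to 34 in lymph node IKDC against NK. For lymph node against spleen it gave 0 to 14 in IKDC, 0 to 3 in NK, 0 to 19 in CDC and 0 to 156 averaged. The members called ranged from 0 to 1 in spleen and lymph node IKDC against CDC, in lymph node NK against CDC and in the averaged organ comparison, and from 0 to 2 in spleen NK against CDC.

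The signs that changed belonged to differences that had not been called. In spleen IKDC against NK, Klrb1f became 0.0998 in the additive model and 0.098 with 1425962_at, and Clec2i -0.55 in the additive model. In lymph node IKDC against NK, Klrb1f became -0.034 with 1425962_at and Clec2i 0.0091 with 1456426_at. For lymph node against spleen, Klrb1f in NK became -0.11 as deposited and -0.25 with the percentile shift, and in IKDC -0.029 with 1425962_at. Klrb1b in IKDC became 0.24 as deposited and 0.13 with the shift. Clec2i became 0.11 in CDC and 1.23 in IKDC with 1456426_at, and 0.45 in IKDC with the mean of probe sets. The Klrb1f interaction of IKDC against NK became -0.13 with 1425962_at. Averaged over cell types, Klrb1f became -0.041 as deposited, -0.15 with the shift, -0.070 with the mean of probe sets and -0.24 with 1425962_at. Leaving out spleen arrays gave Clec2i ranges of -0.44 to 1.09 in spleen IKDC against CDC, -0.52 to 1.01 in spleen NK against CDC, -0.39 to 0.55 in spleen IKDC against NK, -1.14 to 0.39 for lymph node against spleen CDC and -0.72 to 0.81 for the interaction of IKDC against CDC. In spleen IKDC against NK it gave -0.67 to 0.32 for Klrb1f and -0.56 to 0.15 for Clec2d. It gave -0.078 to 0.13 for Klrb1f between organs in NK, -0.27 to 0.0078 for Klrb1b between organs in IKDC, -0.22 to 0.48 for the Clec2d interaction of IKDC against NK and -0.053 to 0.26 for Klrb1f averaged over cell types.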

Other observations

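One further probe set, 1449570_at, is annotated to Klrb1b and Klrb1c together, so its signal can be given to neither gene alone. Klrb1c encodes NKR-P1C, the activating receptor known as NK1.1 in some strains. Its levels were 10.61 in IKDC, 10.86 in NK and 3.72 in CDC from lymph node. In spleen they were 9.06 and 11.29 in IKDC and 10.62 and 11.08 in NK, against 3.78 and 3.41 in CDC. It separated IKDC and NK from CDC on every array, and unlike the Klrb1b set 1420421_s_at it was low on the lymph node CDC array.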
